A study of Mus musculus with 4 samples.

Results

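The Cfap genes of the mouse encode cilia and flagella associated proteins, and all 33 rows whose symbol is Cfap followed by a number were taken from the 55401 rows of each table. Poly(A) RNA from testes was sequenced in 4 libraries of C57BL/6J mice at postnatal day 14: 2 Kctd19-/- libraries (ko) and 2 Kctd19+/- libraries (het), labelled as untreated. Both groups therefore carry a mutant Kctd19 allele, and no wild type library was compared. Which part of Kctd19 was deleted is not labelled, and the labels call the replicates biological without saying how many mice went into a library. Levels are given in FPKM, which counts fragments relative to exon length and to the assigned reads of a library, so they can be set side by side between genes.

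Proteins of this family were named for their place in cilia and flagella, and most are not relatives by sequence. Many are parts of the axoneme, the microtubule core of the sperm tail: projections of the central pair, the bases of radial spokes, the regulators of the inner dynein arms, and proteins that line the inside of the doublet microtubules. Loss of several of them gives short, coiled or absent sperm tails and male infertility in mice and humans. In the mouse testis transcription of many flagellar genes begins in meiotic spermatocytes, well before a tail is built, and at postnatal day 14 the most advanced germ cells of the first wave are such spermatocytes.

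Assigned reads numbered 12155089 to 19430364 per library. Kctd19 itself stood at 12.8 and 15.6 FPKM in the ko libraries, against 29.7 and 18.2 FPKM in the het libraries, which did not pass the test (log2 fold change -0.69, SE 0.25, limma, Benjamini-Hochberg adjusted p = 0.529), so the level summed over the gene does not check the genotype. All listed markers of Sertoli cells, Leydig cells, spermatogonia and early spermatocytes were above 0 in every library. Limma was fitted over the 17905 genes that averaged 1 FPKM or more, on log2(FPKM + 1), a scale that understates the change of low genes.

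The family spanned a wide range of levels. Averaged over the 4 libraries, 5 of the 33 genes reached 10 FPKM or more, 11 had a mean of 1 to under 10 FPKM, and 17 a mean under 1 FPKM, which were kept out of that test. Cfap70 lay just inside the limit of 1 FPKM, with a mean of 1.002 FPKM, and Cfap299 just outside it, with a mean of 0.971 FPKM. Summed over all 33 genes, the level was 103 and 98.4 FPKM in the ko libraries, against 172 and 129 FPKM in the het libraries. Both ko sums were thus below both het sums, and the het libraries lay farther from each other than the ko libraries did.

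Among the 16 tested Cfap genes, both ko libraries lay below both het libraries in 13, where 19.7% of all tested genes had this arrangement. The reverse arrangement held in 2, Cfap157 and Cfap410, against 22.1% of all tested genes, and the groups overlapped in 1, Cfap20. Limma called 0 of the 16 lower, against 0.0112% of all tested genes, and 0 higher, against 0.207%. At an unadjusted p under 0.05, limma placed 11 of the 16 lower, against 4.41% of all tested genes, and 0 higher, against 4.9%. The median log2 fold change of the 16 was -0.56, beside 0.01 over all tested genes, and 14 of the 16 were below 0, against 47.9% of all tested genes. Limma's voom, run on whole reads recovered from the FPKM steps, called 6 of 15 lower at an adjusted p under 0.05, where it called 0.608% of all genes lower, and 0 higher, where it called 0.768%. At an unadjusted p under 0.05 voom placed 12 of the 15 lower, against 5.45% of its genes, and 0 higher, against 5.07%. The 6 that voom called at an adjusted p under 0.05 were Cfap65, Cfap46, Cfap57, Cfap74, Cfap69 and Cfap70. No single gene can reach 0.05 in an exact permutation test of 2 against 2 libraries, for which the smallest two-sided p is 0.333.

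Cfap46 and Cfap70 had a ko mean under 1 FPKM and passed the filter on low values only through their het libraries, so a difference in them was built into their being tested. Over the 14 other tested Cfap genes, both ko libraries lay below both het libraries in 11, against 18.8% of all genes whose ko mean and het mean both reached 1 FPKM. Limma placed 9 of the 14 lower at an unadjusted p under 0.05, against 3.67% of those genes, and called 0, and the median log2 fold change was -0.48. Voom called 4 of 13 lower, against 0.386%. These counts were added after the values were seen.

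**Figure D1:**
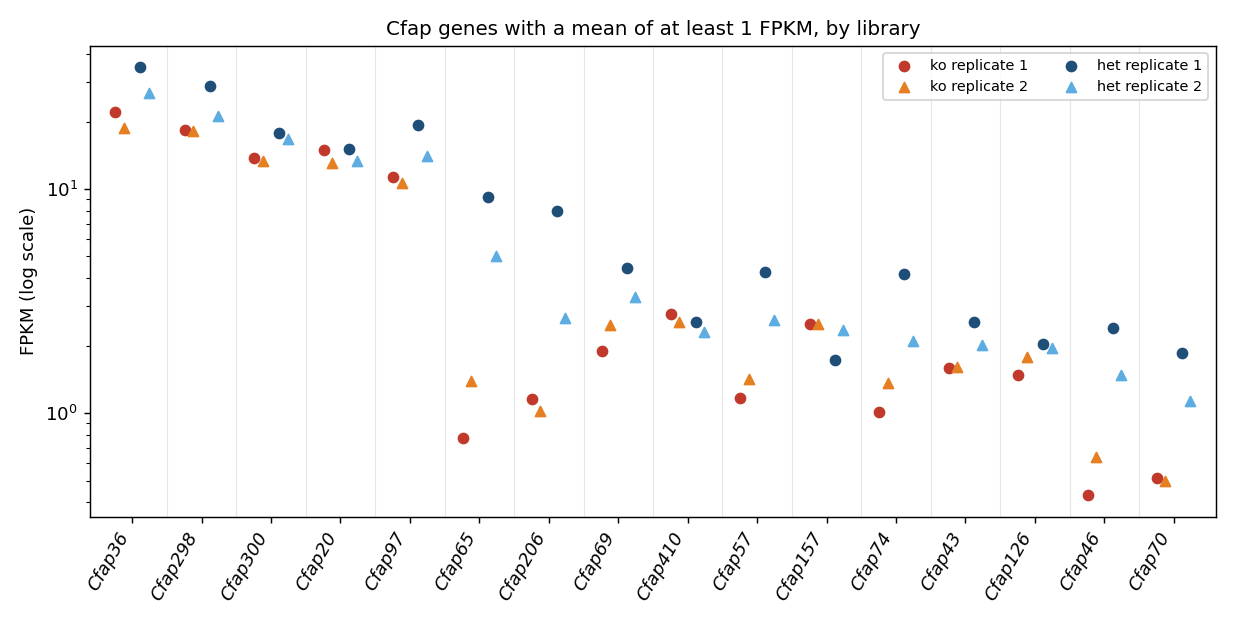
FPKM on a log scale for each of the 16 tested Cfap genes, ordered from the highest mean on the left, with 1 point per library and no averaging. The ko points lie below the het points in 13 genes, and the gap is widest in Cfap65, whose ko points stand at 0.777 and 1.40 FPKM against het points at 9.22 and 5.01 FPKM.

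In bulk tissue fewer cells of a type and less RNA per cell cannot be told apart, and markers of pachytene spermatocytes moved with the Cfap genes. The summed level of 10 pachytene markers was 98.03 and 105 FPKM in the ko libraries, against 285 and 151 FPKM in the het libraries. Of these markers 7 were tested, both ko libraries lay below both het libraries in 6, against 19.7% of all tested genes, and limma called 0, with 5 lower at an unadjusted p under 0.05, against 4.41%, and 0 higher. Of the 7, Acr and Spata16 passed the filter only through het. Without them 4 of 5 were below het, against 18.8% of genes whose ko mean and het mean both reached 1 FPKM. At an unadjusted p under 0.05, 3 of 5 were lower, against 3.67% of those genes. Among the untested markers Ccna1 was above het in both ko libraries, at 0.477 and 0.262 FPKM, against 0.149 and 0.224 FPKM in the het libraries. The 11 Cfap genes of 1 to under 10 FPKM summed to 15.3 and 17.2 FPKM in the ko libraries, against 43.2 and 26.9 FPKM in the het libraries. Both sums were thus highest in het replicate 1. The part of pachytene cell number in these differences was not tested.

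Markers of earlier germ cells and of Sertoli cells were less far apart. The 8 early spermatocyte markers summed to 426 and 442 FPKM in the ko libraries, against 571 and 448 FPKM in the het libraries, the same order of libraries as in the pachytene markers, with ko replicate 2 and het replicate 2 close. The 10 spermatogonial markers summed to 337 and 301 FPKM in the ko libraries, against 241 and 285 FPKM in the het libraries. The 10 Sertoli markers summed to 2110 and 1810 FPKM in the ko libraries, against 1451 and 1730 FPKM in the het libraries. In the spermatogonial and the Sertoli sum both ko libraries stood above both het libraries. Markers of multiciliated epithelium, which lines the efferent ducts beside the testis and also uses these genes, were low in every library: the 10 markers summed to 6.08 and 4.70 FPKM in the ko libraries, against 4.33 and 3.90 FPKM in the het libraries. Mcidas, a regulator of that cell fate, was at most 0.115 FPKM in any library and was listed at 0 in ko replicate 2.

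Among cells outside the tubules, the 8 macrophage markers summed to 162 and 133 FPKM in the ko libraries, against 72.9 FPKM in each het library. Limma called 1 of the 8 higher, C1qb, against 0.207% of all tested genes. The groups were apart with ko on the higher side in 7 of the 8, against 22.1% of all tested genes, and Mrc1 overlapped. At an unadjusted p under 0.05 limma placed 5 higher, against 4.9% of all tested genes, and 0 lower. The 6 Leydig markers summed to 193 and 151 FPKM in the ko libraries, against 149 and 139 FPKM in the het libraries. The 6 peritubular and vascular markers summed to 264 and 249 FPKM in the ko libraries, against 267 and 243 FPKM in the het libraries, so the groups overlapped in this sum.

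Spermatid transcripts stood apart in 1 library. The 10 spermatid markers summed to 47.1 FPKM in ko replicate 1 and 3.73 FPKM in ko replicate 2, against 6.49 and 3.96 FPKM in the het libraries. All 10 were higher in ko replicate 1 than in ko replicate 2, with the protamine Prm1 at 15.5 FPKM against 0.481 FPKM. The tested Cfap genes did not share this split as a set, as 8 of the 16 were higher in ko replicate 1 than in ko replicate 2. These were all 5 genes of at least 10 FPKM, with a median ratio of 1.06, and 3 of the 11 of 1 to under 10 FPKM. Of the 17 genes under 1 FPKM, 7 were higher in ko replicate 1, among them Cfap161 at 1.00 against 0.258 FPKM. Without ko replicate 1 the median log2 fold change of the 16 was -0.53, and without ko replicate 2 it was -0.49.

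**Figure D2:**
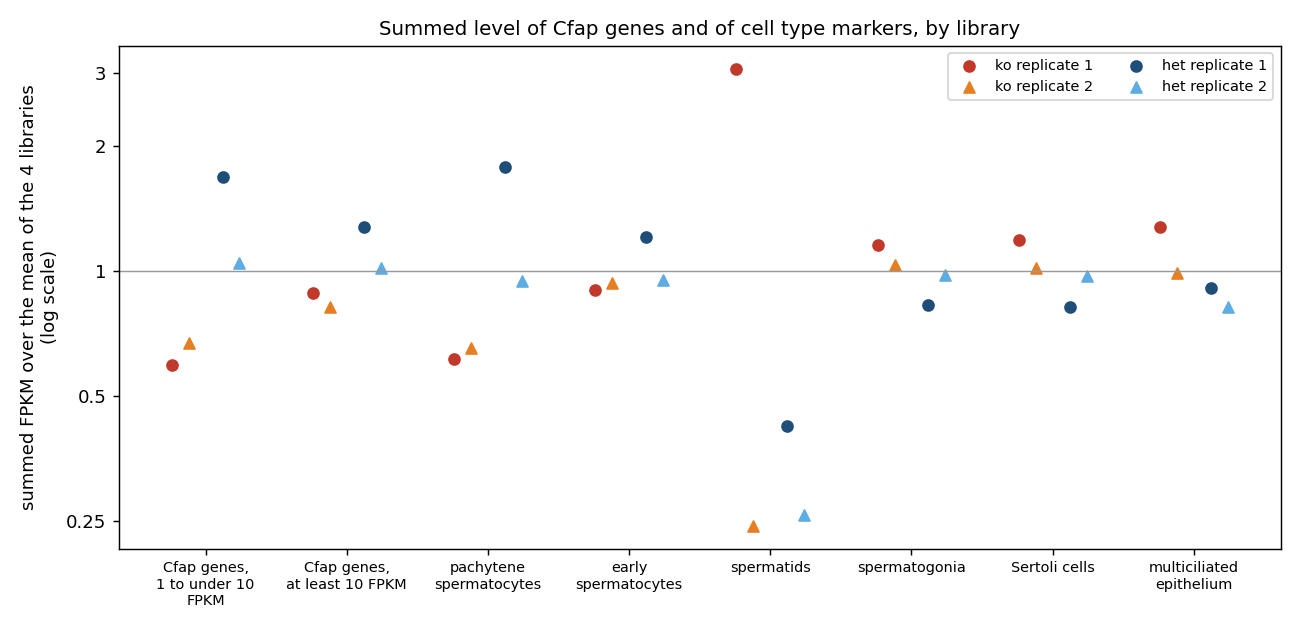
Summed FPKM of 2 sets of Cfap genes and of 6 marker lists in each library, divided by the mean of the 4 libraries and drawn on a log scale. The Cfap genes of 1 to under 10 FPKM and the pachytene markers share the order of the 4 libraries, with het replicate 1 on top, while the spermatid markers stand apart in ko replicate 1.

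Promoter sequences show what part of the family shares in its DNA. RFX factors, which switch on genes of cilia, bind the X-box, and its core GTTGCCA was searched on both strands in RefSeq windows (GRCm38.p6) from 250 bases before to 50 bases after the start of transcription. Windows were on hand for 26 of the 33 genes. Of their 29 windows, 9 held the core (31.0%), in 8 genes, against 4.38% of 32851 windows of all genes. The core of the motif of A-MYB, the factor that drives many pachytene genes, is GGCAGTT. It was in 1 of the 29 windows (3.45%), against 4.12% of all windows. The following stretches of 100 bases end at the base before the start and read 5′ to 3′ on the strand of the gene. Capitals mark matches, with TGGCAAC being the core on the opposite strand. The first 5 are shown because they hold the core within 100 bases of the start and belong to genes of different levels, and Cfap46 is shown as a gene with no match that voom called lower.
Cfap20 (chr8:95434870-95434969, minus strand): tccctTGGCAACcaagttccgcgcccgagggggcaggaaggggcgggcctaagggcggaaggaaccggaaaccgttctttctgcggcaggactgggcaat
Cfap298 (chr16:90934850-90934949, minus strand): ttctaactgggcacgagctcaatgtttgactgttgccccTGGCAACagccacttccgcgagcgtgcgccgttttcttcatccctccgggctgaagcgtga
Cfap74 (chr4:155409140-155409239, plus strand): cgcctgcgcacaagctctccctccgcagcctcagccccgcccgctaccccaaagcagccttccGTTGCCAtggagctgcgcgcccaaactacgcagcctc
Cfap161 (chr7:83794840-83794939, minus strand): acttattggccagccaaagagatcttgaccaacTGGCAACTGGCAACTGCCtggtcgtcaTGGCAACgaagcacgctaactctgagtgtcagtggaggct
Cfap44 (chr16:44394699-44394798, plus strand): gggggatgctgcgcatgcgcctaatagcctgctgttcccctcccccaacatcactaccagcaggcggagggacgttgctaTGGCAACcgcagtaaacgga
Cfap46 (chr7:139683816-139683915, minus strand): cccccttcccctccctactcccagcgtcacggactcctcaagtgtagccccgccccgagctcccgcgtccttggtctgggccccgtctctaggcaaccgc

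In Cfap161 the core occurred 3 times, beginning at positions -67, -60 and -40 from the start of transcription, and the A-MYB core at position -56 overlapped the second of these. The other genes with the core in a window were Cfap300, Cfap58 and Cfap97d2. Cfap74 has 2 windows in the table, and both hold the same copy. A match describes letters only, and only the exact core was searched. A gene with no match may thus still hold an X-box with other letters. Among the 8 genes with the core, Cfap20 did not differ between the groups beyond its spread, while Cfap74 was called lower by voom. Of the other 5 genes that voom called lower, Cfap46, Cfap57, Cfap69 and Cfap70 had a window and no match, and the promoter of Cfap65 was not analysed here.

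The role with the most genes lower in ko was also the one that held the most genes. It was made up of genes of the central pair apparatus, the pair of single microtubules in the middle of the axoneme. Of 9 such Cfap genes, both ko libraries lay below both het libraries in 8, against 19.7% of all tested genes and 17.0% of low genes with at least 20 reads, and Cfap47 overlapped. All 5 that were tested were lower at an unadjusted p under 0.05, against 4.41% of all tested genes, and limma called 0. Without Cfap46 and Cfap70 the count was 3 of 3, against 3.67% of genes whose ko mean and het mean both reached 1 FPKM. Cfap221, among the 8, reached 20 reads only through its het libraries, so a difference in it was built in. In the smaller dynein assembly role 2 of 2 genes lay below het, against 19.7% of all tested genes. Both were lower at an unadjusted p under 0.05, against 4.41%. Cfap65 (chromosome 1, 74902071 to 74935599), needed for normal sperm tails in mouse and human, had 0.777 and 1.40 FPKM in the ko libraries, against 9.22 and 5.01 FPKM in the het libraries. The lowest het library was thus more than 3 FPKM above the highest ko library. The means were 1.09 ± 0.438 FPKM in ko and 7.11 ± 2.98 FPKM in het (SD, n = 2 each), resting on 118 and 159 reads in ko and 1055 and 476 reads in het. Its log2 fold change was -1.93 (SE 0.31, limma, Benjamini-Hochberg adjusted p = 0.253), and voom on whole reads gave -2.77 (limma voom, Benjamini-Hochberg adjusted p = 0.000408).

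An antisense transcript lies within Cfap65. Exons of Gm15841, on the opposite strand, share 287 bases with exons of Cfap65, which is 3.67% of the exon length of Cfap65. Gm15841 stood at 1.39 and 1.73 FPKM in the ko libraries, against 17.4 and 11.3 FPKM in the het libraries. The use of strand in counting is not stated, so reads of the shared stretch cannot be told apart.

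Cfap46, Cfap54, Cfap74 and Cfap221 form 1 projection of the central pair, known in detail from the alga Chlamydomonas. Cfap46 (chromosome 7, 139600951 to 139683817) had 0.430 and 0.640 FPKM in the ko libraries, against 2.41 and 1.48 FPKM in the het libraries, so that the groups did not overlap. Its log2 fold change was -0.93 (SE 0.25, limma, Benjamini-Hochberg adjusted p = 0.433), and voom gave -1.90 (limma voom, Benjamini-Hochberg adjusted p = 0.00354). Cfap74 (chromosome 4, 155409190 to 155466823) had 1.01 and 1.37 FPKM in the ko libraries, against 4.16 and 2.11 FPKM in the het libraries. Its log2 fold change was -0.88 (SE 0.29, limma, Benjamini-Hochberg adjusted p = 0.505), and voom gave -1.39 (limma voom, Benjamini-Hochberg adjusted p = 0.0257). Cfap54 and Cfap221 were below 1 FPKM and are described with the low genes.

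The other tested genes of the central pair were Cfap69 and Cfap70. Cfap69 (chromosome 5, 5579278 to 5664239), required for sperm tail formation, had 1.89 and 2.47 FPKM in the ko libraries, against 4.44 and 3.29 FPKM in the het libraries. Its log2 fold change was -0.61 (SE 0.18, limma, Benjamini-Hochberg adjusted p = 0.474), and voom gave -0.86 (limma voom, Benjamini-Hochberg adjusted p = 0.0302). Cfap70 (chromosome 14, 20394193 to 20452226), a protein with tetratricopeptide repeats, had 0.516 and 0.496 FPKM in the ko libraries, against 1.86 and 1.13 FPKM in the het libraries. Its log2 fold change was -0.71 (SE 0.24, limma, Benjamini-Hochberg adjusted p = 0.513), and voom gave -1.54 (limma voom, Benjamini-Hochberg adjusted p = 0.0427). In both genes the ko libraries lay below the het libraries.

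Cfap206, which docks a radial spoke to the doublet in Tetrahymena, had the highest ratio of het replicate 1 to het replicate 2 among the tested Cfap genes. Cfap206 (chromosome 4, 34688559 to 34730206) had 1.16 and 1.02 FPKM in the ko libraries, against 7.98 and 2.65 FPKM in the het libraries. Het replicate 1 was thus 3.01 times het replicate 2. The log2 fold change was -1.45 (SE 0.44, limma, Benjamini-Hochberg adjusted p = 0.475), and it was -0.80 without het replicate 1. Voom gave -2.11 and did not call it (limma voom, Benjamini-Hochberg adjusted p = 0.0627).

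Of the regulators of the inner dynein arms, Cfap57 and Cfap43 were tested, and both had a negative log2 fold change. Cfap44, Cfap73 and Cfap100 are described with the low genes, where Cfap100 went the other way. Cfap57 (chromosome 4, 118554551 to 118620777), needed for a subset of inner arm dyneins in Chlamydomonas, had 1.17 and 1.42 FPKM in the ko libraries, against 4.28 and 2.599 FPKM in the het libraries. Its log2 fold change was -0.93 (SE 0.23, limma, Benjamini-Hochberg adjusted p = 0.408), and voom gave -1.41 (limma voom, Benjamini-Hochberg adjusted p = 0.0181). Cfap43, which with Cfap44 tethers an inner arm dynein to the doublet, had 1.59 and 1.60 FPKM in the ko libraries, against 2.55 and 2.00 FPKM in the het libraries. The groups of Cfap43 did not overlap, and its log2 fold change of -0.33 (95% confidence interval -0.76 to 0.10) did not pass in limma or voom.

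The dynein assembly genes Cfap298 and Cfap300 were among the most abundant of the family. Both proteins work in the cytoplasm, where dynein arms are put together before transport, and mutations in either cause ciliary disease in humans. Cfap298 (chromosome 16, 90925809 to 90935114) had 18.3 and 18.2 FPKM in the ko libraries, against 28.7 and 21.2 FPKM in the het libraries (log2 fold change -0.41, SE 0.16, limma, Benjamini-Hochberg adjusted p = 0.535). Exons of Gm49727, on the opposite strand, share 703 bases with those of Cfap298, 44.2% of its exon length, so reads there cannot be told apart. Cfap300 (chromosome 9, 8021672 to 8042823) had 13.7 and 13.3 FPKM in the ko libraries, against 17.9 and 16.7 FPKM in the het libraries (log2 fold change -0.33, SE 0.08, limma, Benjamini-Hochberg adjusted p = 0.413). Neither gene was called by voom, and the difference in Cfap300 rested on het libraries that were close to each other.

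Cfap36 was the most abundant Cfap gene. Its protein binds the small GTPase Arl3, which unloads cargo in cilia. Cfap36 (chromosome 11, 29221532 to 29247409) had 22.0 and 18.8 FPKM in the ko libraries, against 34.9 and 26.9 FPKM in the het libraries (log2 fold change -0.57, SE 0.16, limma, Benjamini-Hochberg adjusted p = 0.448). Cfap97 (chromosome 8, 46151771 to 46195590), whose relative hemingway builds the sperm tail in Drosophila, had 11.3 and 10.7 FPKM in the ko libraries, against 19.3 and 14.02 FPKM in the het libraries (log2 fold change -0.55, SE 0.16, limma, Benjamini-Hochberg adjusted p = 0.474). Voom gave adjusted p values on the edge of the threshold for both (limma voom, Benjamini-Hochberg, 0.052 for Cfap36 and 0.0605 for Cfap97).

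Neither of the tested doublet lumen genes of the family passed in limma or voom. Cfap20, an ancient protein at the inner junction of the doublet, had 14.9 and 13.1 FPKM in the ko libraries, against 15.0 and 13.3 FPKM in the het libraries. Its groups overlapped, its log2 fold change was -0.02 (95% confidence interval -0.30 to 0.27), and the limma Benjamini-Hochberg adjusted p was 0.971. Cfap126, also called Flattop, which positions basal bodies in mouse multiciliated cells, had 1.48 and 1.78 FPKM in the ko libraries, against 2.04 and 1.95 FPKM in the het libraries. The groups did not overlap, but the log2 fold change of -0.19 had a 95% confidence interval of -0.60 to 0.22.

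The 2 tested genes above het in ko were Cfap157 and Cfap410. Cfap157, a basal body protein needed for male fertility in the mouse, had 2.49 and 2.51 FPKM in the ko libraries, against 1.73 and 2.36 FPKM in the het libraries (log2 fold change 0.21, 95% confidence interval -0.22 to 0.64). Cfap410, mutated in a human disease of retina and skeleton, had 2.76 and 2.56 FPKM in the ko libraries, against 2.56 and 2.31 FPKM in the het libraries (log2 fold change 0.09, 95% confidence interval -0.25 to 0.44). Neither gene passed in limma.

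**Figure D3:**
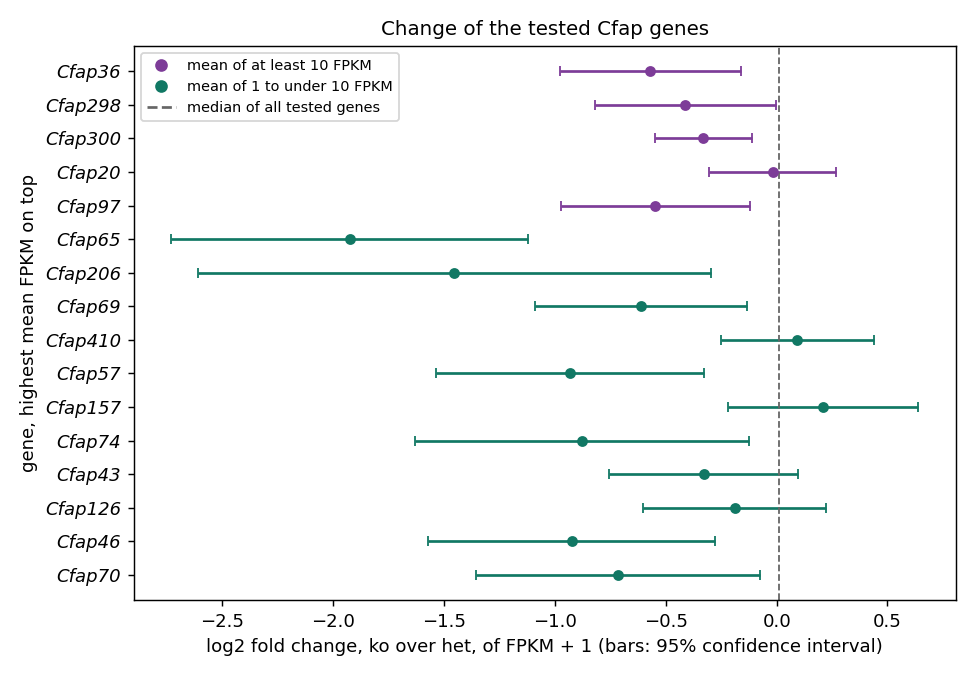
Log2 fold change of ko over het on the FPKM + 1 scale for the 16 tested Cfap genes, with 95% confidence intervals that are not adjusted for the number of genes, ordered by mean level from the top. The dashed line marks the median of all tested genes at 0.01, and 14 of the 16 points lie below 0, from -0.02 in Cfap20 to -1.93 in Cfap65.

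Split by level, the median change lay closer to 0 among the abundant genes. The 5 genes of at least 10 FPKM had a median log2 fold change of -0.41. In 4 of the 5 both ko libraries lay below het, against 17.9% of all genes at that level, and 4 were lower at an unadjusted p under 0.05, against 3.23% of all genes at that level. The 11 genes of 1 to under 10 FPKM had a median of -0.71. In 9 of the 11 both ko libraries lay below het, against 20.8% of all genes at that level, and 7 were lower at an unadjusted p under 0.05, against 5.11% of all genes at that level. Limma called 0 in either class. The ratio of the ko mean to the het mean, which does not depend on the added 1, had a median of 0.733 in the abundant class and 0.379 in the middle class. Voom called 0 of 5 lower in the abundant class and 6 of 10 in the middle class, against 0.608% of all its genes. The share that voom called over all genes at each level was not counted. The middle class holds Cfap46 and Cfap70, which passed the filter only through het, so part of its lower values was built in. Its median of -0.71 is the value of Cfap70 itself. Both are also among the 6 that voom called. The abundant class holds no such gene. The difference between the classes was not tested.

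Of the 17 genes under 1 FPKM, the 16 with recovered reads held from 14 to 441 reads over the 4 libraries. Voom was run again on all 22591 genes with at least 20 reads over the 4 libraries, a choice made after the values were seen. Of the 29 Cfap genes that entered, this fit called 10 lower, where it called 0.642% of all its genes lower, and 0 higher, where it called 0.682%. At an unadjusted p under 0.05 it placed 17 lower, against 5.22%, and 0 higher, against 4.75%. The 10 called at an adjusted p under 0.05 were the 6 that voom called on the tested genes, together with Cfap36, Cfap206, Cfap54 and Cfap45. Of the 14 low genes among them it called 2, against 0.446% of the low genes in the fit. The genes outside it were Cfap97d1 and Cfap58, with fewer than 20 reads, and Cfap410 and Cfap47, for which no exon length was matched. Over all 17 genes under 1 FPKM, both ko libraries lay below het in 7 and above het in 1, and the groups overlapped in 9. All 7 that lay below had at least 20 reads, which makes 7 of the 14 in the fit, against 17.0% of all such low genes. Of the 7, Cfap221 reached 20 reads only through het, with 3 and 3 reads in ko against 23 and 8 in het. A difference in Cfap221 was thus built into its being counted.

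Cfap54, of the same central pair projection as Cfap46, had 0.334 and 0.276 FPKM in the ko libraries, against 0.849 and 0.590 FPKM in the het libraries. This came from 95 and 59 reads in ko and 182 and 105 reads in het, spread over a long transcript (limma voom log2 fold change -1.22, SE 0.25, Benjamini-Hochberg adjusted p = 0.0296). Cfap45, a doublet lumen protein, had 0.225 and 0.408 FPKM in the ko libraries, against 1.23 and 0.734 FPKM in the het libraries, from 25 and 34 reads in ko and 103 and 51 reads in het (limma voom log2 fold change -1.71, SE 0.38, Benjamini-Hochberg adjusted p = 0.0455). In both genes the groups did not overlap.

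Further low genes were below het in both ko libraries without being called. Cfap52, a doublet lumen protein with WD repeats, had 9 and 11 reads in ko and 68 and 17 reads in het (limma voom log2 fold change -2.17, SE 0.65, Benjamini-Hochberg adjusted p = 0.173). Het replicate 1 held most of the reads of this gene. Cfap221, the fourth gene of the Cfap46 projection, had 3 and 3 reads in ko and 23 and 8 reads in het (limma voom log2 fold change -2.41, SE 0.77, Benjamini-Hochberg adjusted p = 0.21). Cfap99 had 15 and 16 reads in ko and 40 and 24 reads in het (limma voom log2 fold change -1.36, SE 0.44, Benjamini-Hochberg adjusted p = 0.222). Cfap44, the partner of Cfap43, had 47 and 41 reads in ko and 66 and 36 reads in het, and Cfap97d2 had 11 and 11 reads in ko and 13 and 12 reads in het. In FPKM the groups did not overlap in any of these 5 genes.

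The remaining low genes overlapped between the groups, apart from Cfap100. Cfap100, which with Cfap73 regulates inner arm dyneins in Chlamydomonas, had 0.312 and 0.499 FPKM in the ko libraries, against 0.232 and 0.220 FPKM in the het libraries, from 25 and 30 reads in ko and 14 and 11 reads in het. It was above het in both ko libraries and was not called (limma voom log2 fold change 0.73, SE 0.48, Benjamini-Hochberg adjusted p = 0.662). Cfap73 had 13 and 11 reads in ko and 7 and 10 reads in het, and 8.47% of its exon length is shared with Ddx54 on the opposite strand, which stood at 12.4 to 14.7 FPKM. Cfap61, part of a complex at the base of a radial spoke, had 0.311 and 0.446 FPKM in the ko libraries, against 0.412 and 0.372 FPKM in the het libraries.

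Of the doublet lumen genes at a low level, Cfap53, also needed for left-right asymmetry, had 0.851 and 0.713 FPKM in the ko libraries, against 0.762 and 1.01 FPKM in the het libraries. Cfap77 had 0.902 and 0.732 FPKM in the ko libraries, against 0.963 and 0.878 FPKM in the het libraries. Cfap161 was uneven within ko, at 1.00 and 0.258 FPKM, against 0.771 and 1.19 FPKM in the het libraries. None of these 3 genes separated the groups.

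Cfap299 had 0.711 and 0.521 FPKM in the ko libraries, against 2.03 and 0.625 FPKM in the het libraries, with het replicate 1 alone standing high. Cfap47, a central pair gene needed for sperm tails, had 0.568 and 0.682 FPKM in the ko libraries, against 0.576 and 0.735 FPKM in the het libraries. Cfap97d1, required for mouse sperm motility, rested on 8 and 3 reads in ko and 3 and 3 reads in het. Cfap58, needed for the sperm tail and its mitochondrial sheath, had 6 and 1 reads in ko and 7 and 0 reads in het, and 0 of 12155089 reads allows up to 3 reads, or 0.0705 FPKM. A difference in the last 2 genes was not detectable at this depth.

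**Figure D4:**
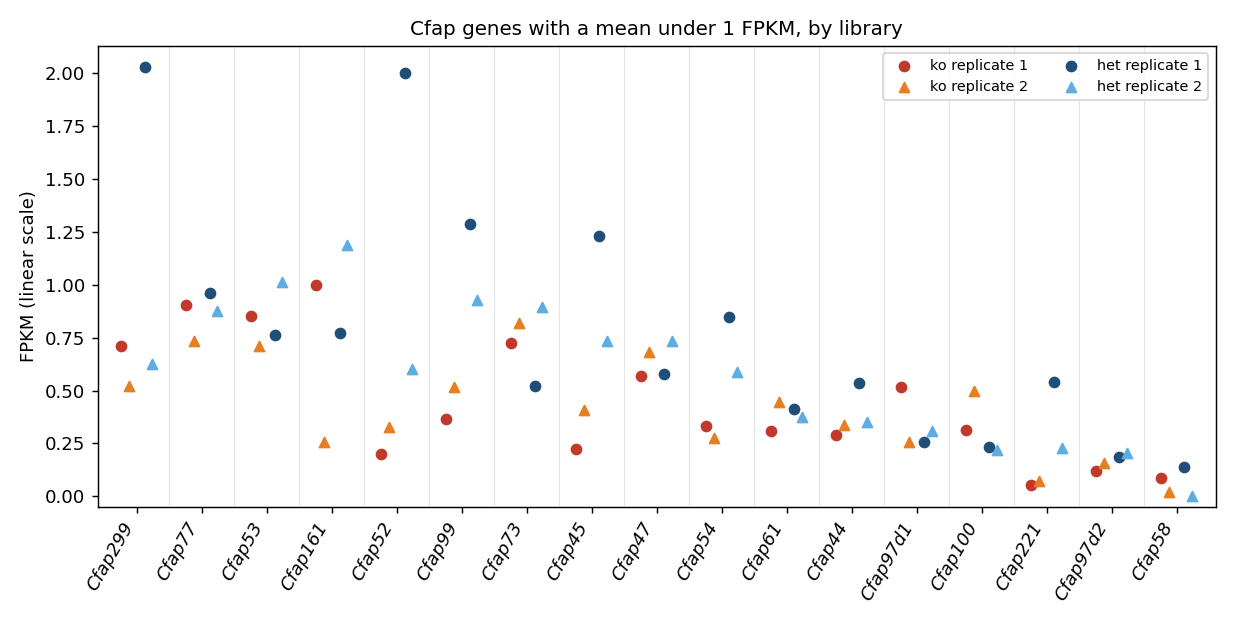
FPKM on a linear scale for each of the 17 Cfap genes with a mean under 1 FPKM, with 1 point per library and the highest mean on the left. Het replicate 1 stands above the rest in Cfap299 and Cfap52, at 2.03 and 2.00 FPKM, while most genes toward the right lie under 0.6 FPKM in every library and rest on few reads.

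The het libraries differed from each other in the same genes. Het replicate 1 was above het replicate 2 in 15 of the 16 tested Cfap genes, against 49.4% of all tested genes, and the median ratio of the pair was 1.35, against 0.998 over all tested genes. The ratio was 1.84 in Cfap65, 1.97 in Cfap74, 1.65 in Cfap57 and 1.07 in Cfap300. Without het replicate 1 the median log2 fold change of the 16 was -0.36, and without het replicate 2 it was -0.76. With a library left out, limma put no more of the 16 lower at an unadjusted p under 0.05 than with all 4 libraries. The fewest were lower without ko replicate 1. The share over all genes in those fits was not counted. Of the 10 genes that voom called over the wider set, Cfap65, Cfap46 and Cfap74 were called in each of the 4 fits with a library left out. In every such fit, limma included, 1 group holds a single library, which is assumed to vary like the pair of the other group. Without het replicate 1 Cfap65, Cfap46 and Cfap74 were the only Cfap genes called lower, and without het replicate 2 more were called than with all libraries. Lower calls over all genes moved the same way, with fewer without het replicate 1 and more without het replicate 2.

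**Figure D5:**
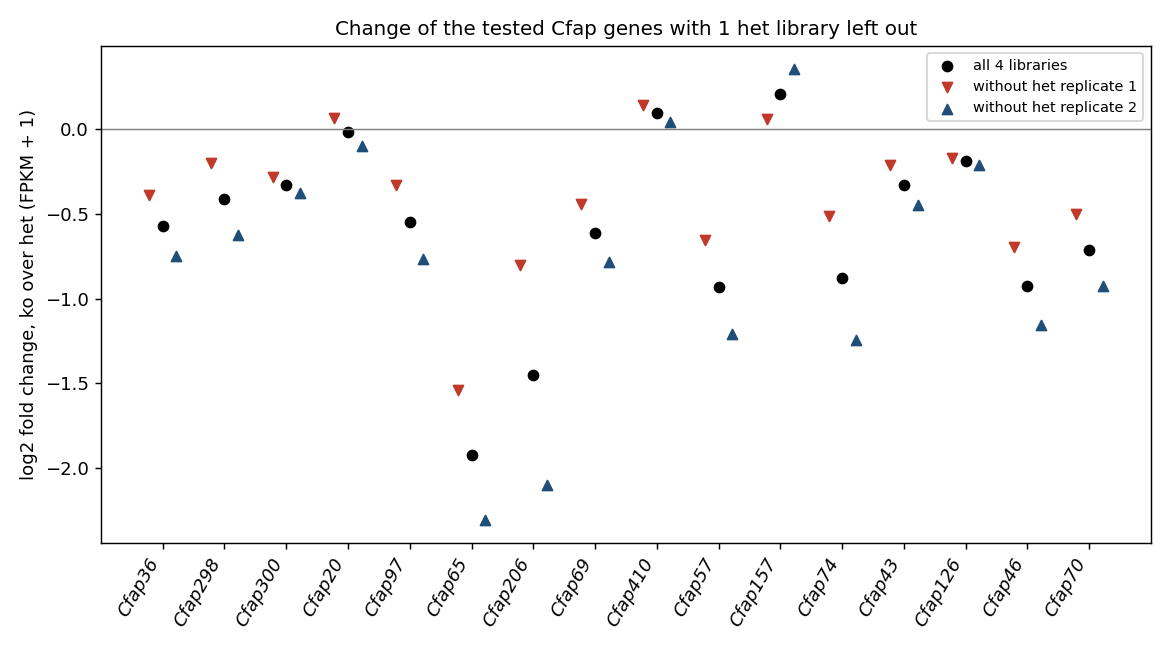
Log2 fold change of ko over het on the FPKM + 1 scale for the 16 tested Cfap genes with all 4 libraries, without het replicate 1 and without het replicate 2. The points without het replicate 1 lie closer to 0 for the genes below 0 other than Cfap20, and Cfap65 remains the lowest of them at -1.54, while Cfap20 changes sign.

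Other axonemal genes were counted in lists drawn up around the family. Of 74 listed genes 51 were tested, limma called 0, and 13 were lower at an unadjusted p under 0.05, against 4.41% of all tested genes, and 0 higher, against 4.9%. Their median log2 fold change was -0.27, beside 0.01 over all tested genes. Voom called 9 of 50 lower, against 0.608% of its genes, and 0 higher, against 0.768%. Of the 51, 6 passed the filter only through het, namely Spag6l, Spag8, Ttc25, Fsip2, Dnah17 and Rfx4, so that a difference in them was built in. Without them 9 of 45 were lower at an unadjusted p under 0.05, against 3.67%, voom called 5 of 44 lower, against 0.386%, and the median log2 fold change was -0.22. For the partners of the central pair and the rulers of the axonemal repeat, 3 of 5 tested were lower at an unadjusted p under 0.05, and 2 of 4 without Spag6l. Ccdc39, a ruler of the repeat, had 6.38 and 6.78 FPKM in the ko libraries, against 11.8 and 9.74 FPKM in the het libraries. Spag6l, a central pair protein, had 0.452 and 0.482 FPKM in the ko libraries, against 2.89 and 1.46 FPKM in the het libraries. Spag17, also of the central pair, had 1.43 and 1.503 FPKM in the ko libraries, against 2.99 and 2.13 FPKM in the het libraries.

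Of 11 tested doublet lumen genes outside the family 2 were lower at an unadjusted p under 0.05, against 4.41% of all tested genes. Tekt1, a tektin filament protein, had 1.27 and 1.78 FPKM in the ko libraries, against 9.645 and 4.21 FPKM in the het libraries, and Mns1 had 19.3 and 21.0 FPKM in the ko libraries, against 25.8 and 23.2 FPKM in the het libraries. Of 10 tested dynein assembly factors 2 were lower at an unadjusted p under 0.05, against the same 4.41%. Among them Zmynd10 had 1.91 and 2.71 FPKM in the ko libraries, against 13.7 and 7.265 FPKM in the het libraries. In Tekt1, Mns1 and Zmynd10 the ko libraries lay below the het libraries. Nme7, the doublet lumen gene of next smallest p, went the other way. It had 16.9 and 15.4 FPKM in the ko libraries, against 13.4 and 14.015 FPKM in the het libraries. Its log2 fold change was 0.22 (SE 0.09, limma, Benjamini-Hochberg adjusted p = 0.540).

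In the nexin-dynein regulatory complex, which links neighbouring doublets, 2 of 5 tested genes were lower at an unadjusted p under 0.05, against 4.41% of all tested genes. Among them Iqcd had 1.10 and 1.59 FPKM in the ko libraries, against 4.47 and 3.23 FPKM in the het libraries. In outer arm docking 1 of 3 tested genes was lower at that threshold, against the same 4.41%. Without it the count was 0 of 2, against 3.67% of genes that reached 1 FPKM in both groups. The gene was Ttc25, at 0.670 and 0.603 FPKM in the ko libraries, against 1.40 and 1.35 FPKM in the het libraries. Among further genes whose loss malforms the flagellum 2 of 8 were lower, against 4.41%, and 1 of 6 without Fsip2 and Dnah17, against 3.67%. Fsip2, of the fibrous sheath, had 0.533 and 0.626 FPKM in the ko libraries, against 2.49 and 1.40 FPKM in the het libraries.

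Of 8 transcription factors of cilia and spermatocytes that reached 1 FPKM in both groups, 0 were lower at an unadjusted p under 0.05, against 3.67%. Of all 9 tested, which adds 1 that passed the filter only through het, 1 was lower, against 4.41% of all tested genes. This was Rfx4, of the RFX family, at 0.349 and 0.305 FPKM in the ko libraries, against 2.08 and 1.32 FPKM in the het libraries (log2 fold change -1.01, SE 0.25, limma, Benjamini-Hochberg adjusted p = 0.406; limma voom adjusted p = 0.00495). Rfx2, the RFX factor required for spermiogenesis, had 2.94 and 4.64 FPKM in the ko libraries, against 6.77 and 4.67 FPKM in the het libraries, so that ko replicate 2 and het replicate 2 were nearly level. Foxj1, the regulator of motile cilia, overlapped between the groups, at 0.922 and 0.732 FPKM in the ko libraries, against 1.07 and 0.627 FPKM in the het libraries.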

How the data were processed

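The authors deposited FPKM, 1 value for each symbol in each library, as the header states. The submitters' processing notes name GRCm38 and the tools STAR 2.6.1a, CASAVA 1.9, edgeR and featureCounts, with no role or setting. Annotation release and strand use: not given in the sources used here. Symbols were matched to GENCODE M21 (GRCm38) for position and exon length (96.0% of rows). FPKM times exon length moved in steps of 1 read, and at least 99.14% of values up to 20 reads were whole within 0.02, which gave reads and library totals. These cover counting error only. The planned test was run in limma 3.58.1 (R 4.3.3): a pseudocount of 1, a mean of at least 1 FPKM, an intensity trend, genotype as the sole term, and Benjamini-Hochberg adjustment over all genes with a call at 0.05. Voom on whole reads was an alternative. The code was tested on simulated reads. Replicates differed by more than counting error (mean chi-square per gene 19.6 for ko and 6.28 for het), so each was counted as 1 sample. The members and lists were chosen with earlier results of these data known. All members are named, with full statistics for those at an unadjusted p under 0.05 and for the 3 most abundant, and up to 3 genes of smallest p per axonemal list. Promoters are from RefSeq. Other alternatives were a pseudocount of 0.1, no filter, a replicate block, each library left out, 2 other scalings and an adjusted p under 0.01.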

Additional observations from a re-analysis of the deposited data

How the results depend on the processing

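Across all genes limma called 37 higher and 2 lower. It called 0 and 0 without the filter, 0 and 0 at an adjusted p under 0.01, and 15 and 0 with the replicate number as a block. With any 1 library left out it called 0 and 0. Voom on whole reads called 134 and 106, and 154 and 145 over the genes with at least 20 reads, and over that wider set 153 and 141 without ko replicate 1, 388 and 304 without ko replicate 2, 111 and 93 without het replicate 1, and 203 and 611 without het replicate 2. Limma called 0 Cfap genes in each of these settings, while voom called 6 lower, and 10 lower over the wider set (8, 10, 3 and 14 with those libraries left out in the same order); over that set 17 Cfap genes were lower at an unadjusted p under 0.05, against 11 in limma on FPKM, and 3 to 19 was the range with a library left out over both tools. The median log2 fold change of the Cfap genes was -0.56, -0.33 without the filter, where all 33 genes entered, -0.76 to -0.36 with a library left out, and -0.80 to -0.40 in voom over the wider set with a library left out. The direction of Cfap20 turned without het replicate 1 (0.0643 in limma, 0.0730 in voom over the wider set) and without ko replicate 2 (0.0713 and 0.0783), and with a library left out it ranged from -0.106 to 0.0713 in limma and from -0.125 to 0.0783 in voom. None of the other 15 Cfap genes tested on FPKM changed direction in any setting run. Of the 29 Cfap genes in voom over the wider set, 5 turned with a library left out, which were Cfap20 and the low genes Cfap161 (-1.83 to 0.09), Cfap53 (-0.36 to 0.04), Cfap61 (-0.34 to 0.17) and Cfap73 (-0.23 to 0.52). The same-numbered ko and het libraries did not deviate together (correlation -0.03 across genes). With 1 difference per group this cannot exclude that the numbers pair libraries, and the labels do not say. Under the replicate block 10 Cfap genes were lower at an unadjusted p under 0.05. The causes of these shifts were not tested. With 2 libraries a group, 1 library can set the spread, and several Cfap genes under 1 FPKM rest on few reads.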
